A study of Mus musculus with 44 samples.

Results

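The data described here are the 8 libraries of YFP+ plasma cells that were sorted from the bone marrow (4 libraries) and the spleen (4 libraries) of mice treated with tamoxifen at 24 weeks of age and taken 90 days later. They are 8 of the 44 libraries of the series and were chosen by the count-table columns for this age, day, sort and organ. Each of 4 mice, named M2, M3, F15 and F12, gave 1 marrow and 1 spleen library, so the marrow of each mouse could be compared with its own spleen. The labels date M2 and M3 to 09-15 and F15 and F12 to 09-17, so the name prefix and the date cannot be told apart. All libraries are mRNA-seq of CD138high B220- plasma cells isolated by flow cytometry; the labels call the YFP+ cells LLPC (long-lived plasma cells) and the YFP- cells bulk plasma cells. Every group of the series carries the genotype BEC-YFP and received tamoxifen. The labels do not spell out BEC-YFP or say which promoter drives the recombination. The groups set beside these libraries are the YFP- cells of the same 4 mice and organs (8 libraries), the YFP+ cells of young mice treated at 6 to 8 weeks and taken at day 90 (6 libraries), and the YFP+ cells of mice treated at 24 weeks and taken at day 5 (7 libraries).

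Plasma cells are the end stage of B cell differentiation and secrete antibody. Long-lived plasma cells are best known from the bone marrow, where stromal cells and several blood cell types supply adhesion, chemokine and survival signals; the spleen holds them as well, largely in the red pulp. In such designs a genetic label switched on by tamoxifen marks the plasma cells present at that time, so cells still labelled months later are survivors, whichever organ they are found in. The comparison of the organs asks how the survivors of one mouse differ between these niches.

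The 8 libraries held between 6643300 and 9678450 counts, and the defining plasma cell markers were present. Sdc1, which encodes CD138, was at 485.9 to 761.5 CPM (read counts scaled to a common library size) in marrow and 401.0 to 705.5 in spleen, and Pax5, the B cell factor that plasma cells switch off, was at 0 in all 8. Jchain, which encodes the joining chain of polymeric antibody, alone took 245170 to 434013 CPM in marrow and 185700 to 352836 CPM in spleen, a difference that did not pass the test (log2 0.41 ± 0.19, adjusted p = 0.568). Markers of other blood cells were present and uneven. The summed level of 14 measured erythroid markers was 2515 CPM in the marrow of M2, 3132 in the marrow of F15 and 3439 in the spleen of M3, against 6.38 to 338.2 in the other 5 libraries. The summed level of 20 neutrophil and granulocyte precursor markers was 285.2 to 2894 CPM in marrow and 20.8 to 84.4 CPM in spleen, so the organs did not overlap. These were bulk samples, in which fewer cells of a type and less RNA per cell cannot be told apart. The part of these cells in the results below was not tested.

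**Figure D1:**
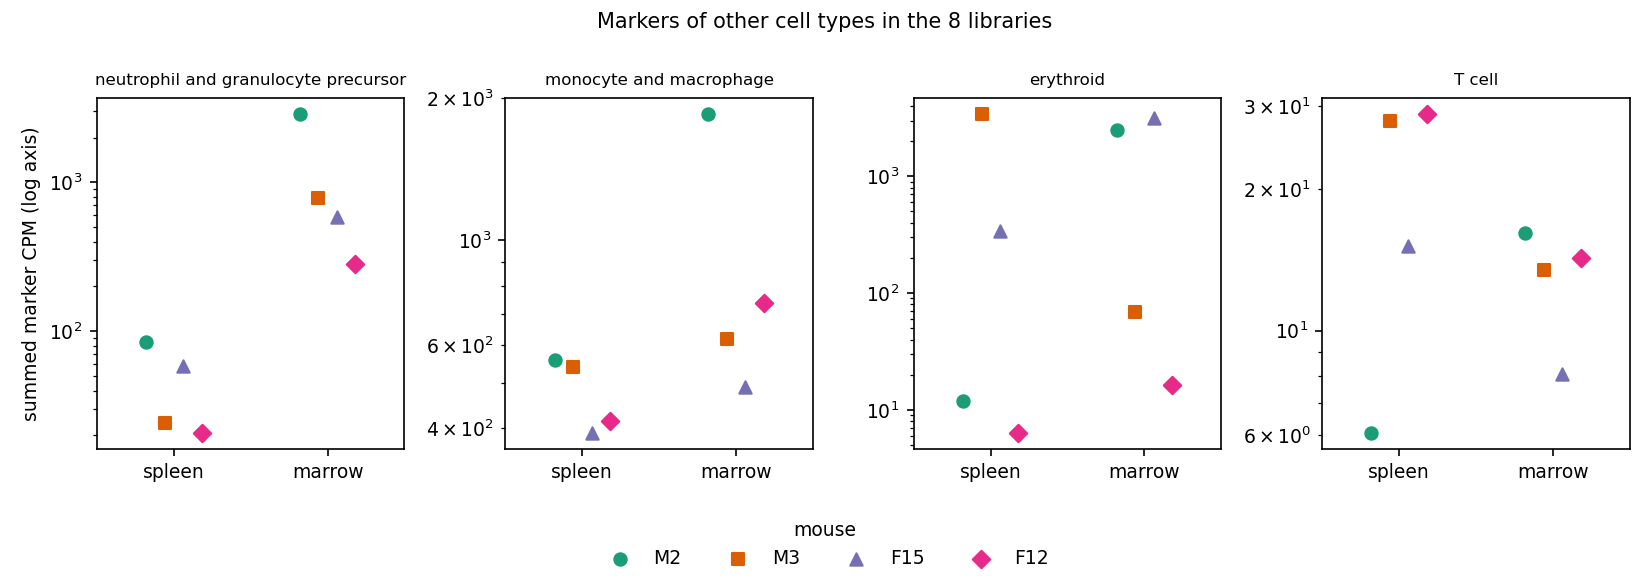
Summed CPM (log axis) of the marker lists of 4 other cell types in the 4 spleen and 4 marrow libraries; each point is a library, with colour and shape for the mouse. Neutrophil markers are higher in every marrow library (285.2 to 2894 CPM) than in any spleen library (20.8 to 84.4 CPM), whereas erythroid markers are high in 2 marrow libraries and 1 spleen library.

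Marrow and spleen YFP+ cells differed in few genes. Of 12457 genes tested, 35 were higher in marrow (0.281%) and 31 were lower (0.249%), 66 in all (0.53%), by edgeR's quasi-likelihood test with Benjamini-Hochberg adjustment at 0.05, with the mouse as a block. The marrow and spleen libraries did not overlap in CPM for 17 of the genes that were higher and 19 of those that were lower, against 427 of all genes tested (3.43%). All 31 lower genes were lower in each of the 4 mice, and 34 of the 35 higher genes were higher in each. The exception, Cep55, was at 0 in both organs of F12. The 66 were chosen on these same libraries, which largely fixes this agreement and favours a lack of overlap. Without the block only 2 genes were called, both lower in marrow: Dpp4 and Cd38. With 1 library or 1 mouse left out in turn, the calls numbered 5 to 25 higher and 9 to 26 lower, and 8 genes were called in all 12 of these fits: Sla2, Lime1 and Usp2, higher in marrow, and Dpp4, Selenop, Hepacam2, Nucb2 and Plekha1, lower in marrow. Without the 3 libraries with high erythroid markers (marrow of M2 and F15, spleen of M3), 2 marrow and 3 spleen libraries are left. Only F12 then keeps both of its YFP+ libraries, so the loss of pairs and the erythroid markers cannot be told apart. In that fit 6 genes were called, 5 of them among the 66: Cd2 and Rbm3, higher in marrow, and Dpp4, Nucb2 and Fcmr, lower.

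**Figure D2:**
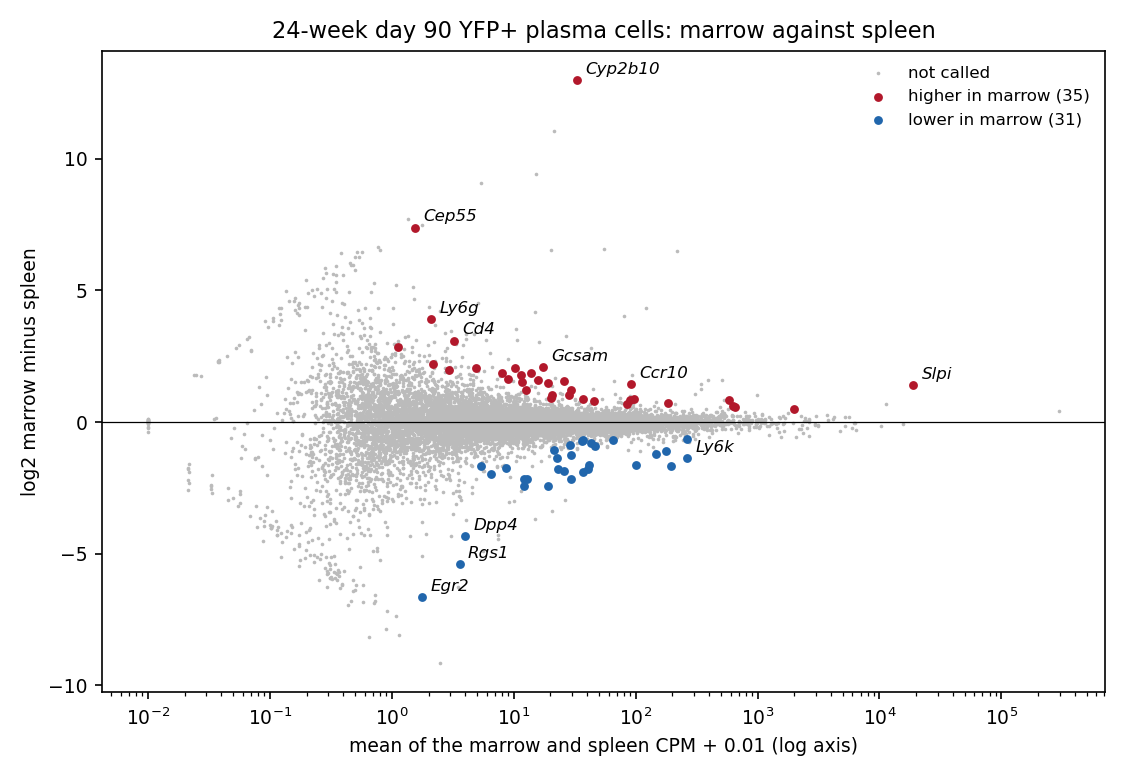
Log2 difference between marrow and spleen (y axis) against the mean of both organs' CPM plus 0.01 (x axis, log scale) for the 12457 genes tested in 24-week day 90 YFP+ cells. Red points are the 35 genes called higher in marrow and blue points the 31 called lower; most genes lie near 0, and the called genes span low to very high levels.

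The difference with the smallest p-value was in Dpp4 (CD26), a cell surface peptidase that trims chemokines. Its level in the marrow of M2, M3, F15 and F12 was 0.119, 0.137, 1.42 and 0 CPM, and in the spleen of the same mice 9.84, 2.62, 12.2 and 5.63 CPM. Every marrow library was below every spleen library (log2 -4.34 ± 0.58, adjusted p = 0.000415). The ± of a log2 difference is throughout a standard error derived from the edgeR test. It is the size of the difference over the square root of its F statistic, not a separate estimate of sampling error. The 4 marrow libraries held 15 reads of Dpp4 in all and the spleen libraries 288, a ratio of spleen to marrow of 17.4 (95% exact interval 10.4 to 31.5, counting error only). The difference kept its call in every fit that left out a library or a mouse, with adjusted p up to 0.00951. It also kept it without the 3 libraries with high erythroid markers, where only F12 has both of its YFP+ libraries. Dpp4 lay below the minimum of 20 CPM set for naming genes and was chosen after its values were seen, as were Usp2, Fcmr, Cep55, Gimap7, Rbm3, Ifnar2, Lgals9, Slc66a2, Emb, Hcst and Mthfd1l below.

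In the YFP- cells of the same mice the mean level of Dpp4 was 6.01 ± 3.18 CPM in marrow and 6.13 ± 3.81 in spleen (SD, n = 4 each; log2 -0.04 ± 0.45). The organ difference of YFP+ cells minus that of YFP- cells was -4.30 ± 0.74 on the log2 scale (adjusted p = 0.0310 by the interaction term in edgeR). Dpp4 was 1 of 2 genes that passed this test among 12457 (0.0161%). No gene passed it without the block, on the 16 libraries of these mice alone, without the 3 libraries high in erythroid markers, or in 7 of the 12 left-out fits. In young YFP+ cells the mean was 8.70 CPM in marrow and 19.3 in spleen (log2 -1.18 ± 0.50), and in day 5 YFP+ cells it was 3.50 and 6.70 (log2 -0.81 ± 0.52). The difference from either did not pass the test (adjusted p = 0.768 and 0.672).

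Several other surface receptors and enzymes were lower in marrow. Cd38, an enzyme that consumes NAD at the cell surface, was at 2.38, 4.39, 4.15 and 4.67 CPM in the marrow of M2, M3, F15 and F12 and at 10.5, 8.86, 21.8 and 11.6 CPM in their spleens, with no overlap (log2 -1.73 ± 0.29, adjusted p = 0.00344). Fcmr, the Fc receptor for IgM, was at 5.6, 3.70, 7.64 and 1.03 CPM in marrow and 26.7, 12.7, 19.6 and 21.0 in spleen, also without overlap (log2 -2.42 ± 0.44, adjusted p = 0.00600). Ly6k, a surface protein of the Ly6 family, was at 139, 118, 158 and 142 CPM in marrow and 535, 386, 368 and 260.0 in spleen (log2 -1.39 ± 0.33, adjusted p = 0.0449). The lowest spleen library, that of F12, still exceeded the highest marrow library, that of F15. Cd83, a surface protein of activated B cells and dendritic cells, was at 4.94 ± 4.05 CPM in marrow and 19.3 ± 7.27 in spleen (SD, n = 4 each; log2 -2.15 ± 0.44, adjusted p = 0.0142). The highest marrow value, in F15, reached just above the lowest spleen value, in F12. Gpr18, a lipid receptor found on lymphocytes, averaged 95.1 ± 52.7 and 199 ± 66.8 CPM (log2 -1.20 ± 0.23, adjusted p = 0.00925). Alpl, the tissue-nonspecific alkaline phosphatase, averaged 13.5 ± 13.1 and 45.6 ± 22.9 CPM (log2 -2.15 ± 0.41, adjusted p = 0.00690). Both overlapped between organs, while each mouse was lower in its marrow.

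Several other lower genes serve secretion, transport or metabolism. Selenop, the secreted selenium carrier of plasma, was at 38.1, 64.0, 66.5 and 23.9 CPM in the marrow of M2, M3, F15 and F12 and at 186, 152, 209 and 66.7 CPM in the spleen (log2 -1.65 ± 0.24, adjusted p = 0.000615), with the highest marrow library just under the lowest spleen library. Hepacam2, an adhesion protein of the immunoglobulin superfamily, was at 47.6, 169, 204 and 33.9 CPM in marrow and 275, 358, 293 and 185 in spleen (log2 -1.66 ± 0.25, adjusted p = 0.000615). The marrow of F15 exceeded the spleen of F12, so the organs overlapped across mice but not within any mouse. Nucb2, a calcium-binding secretory protein and the precursor of nesfatin-1, was at 12.6, 25.4, 25.3 and 5.24 CPM in marrow and 77.1, 58.9, 49.6 and 41.8 in spleen (log2 -1.89 ± 0.28, adjusted p = 0.000615). Its groups did not overlap. Plekha1, an adaptor that binds phosphoinositides, averaged 13.1 ± 5.68 CPM in marrow and 31.7 ± 5.30 in spleen (log2 -1.38 ± 0.22, adjusted p = 0.00116), and its groups did not overlap either. Wls, the carrier that brings Wnt proteins to the cell surface, averaged 7.19 ± 5.89 and 31.3 ± 17.3 CPM (log2 -2.42 ± 0.48, adjusted p = 0.00925). Slc43a1, an amino acid transporter, averaged 5.10 ± 3.63 and 20.4 ± 3.95 CPM (log2 -2.18 ± 0.42, adjusted p = 0.00721). Cox6a2, a subunit of cytochrome c oxidase best known from muscle and also expressed in plasmacytoid dendritic cells, averaged 10.7 ± 5.82 and 41.2 ± 20.9 CPM (log2 -1.85 ± 0.39, adjusted p = 0.0169). Of these, Slc43a1 and Cox6a2 did not overlap between organs, whereas Wls did, the marrow of F15 lying above the spleen of F12. Cnpy3, a chaperone of Toll-like receptors, and Fez2 differed by log2 -1.24 and -1.06 (adjusted p = 0.0367 and 0.0342).

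Markers of macrophages leaned towards spleen as well. The list of 20 monocyte and macrophage markers had a median log2 difference of -2.69 over the 19 tested, with 16 lower and 10 of them lower in all 4 mice, but none was called. Spic, the factor of red pulp macrophages, was at 0.715, 5.49, 0 and 0 CPM in marrow and 7.68, 13.1, 20 and 12.8 in spleen, and C1qc, a complement subunit, was at 11.3, 15.2, 2.95 and 0.342 and 22.8, 34.3, 49.1 and 29.3. The list's summed CPM went the other way, 490.4 to 1854 in marrow and 391.4 to 558.1 in spleen. Positive differences were found in 3 members, each higher in the marrow of all 4 mice (M2, M3, F15 and F12 in order below). Lyz2, which granulocytes share, was at 1679, 417, 364 and 662 CPM in marrow and 391, 316, 71.4 and 222 in spleen. Cd68 was at 103.4, 126.2, 98.9 and 60.07 CPM in marrow and 77.48, 73.74, 40.03 and 43.88 in spleen. Ccr2 was at 14.89, 1.371, 3.712 and 4.559 CPM in marrow and 3.908, 0.1248, 0.09097 and 1.406 in spleen. The part of these cells in the genes above was not tested.

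Among the genes higher in marrow, several were adaptors and receptors of lymphocyte signalling. Sla2, an adaptor that dampens antigen receptor signalling, was at 24.9, 12.8, 15.1 and 42.5 CPM in the marrow of M2, M3, F15 and F12 and at 7.95, 5.24, 4.55 and 13.9 CPM in the spleen (log2 1.58 ± 0.24, adjusted p = 0.000615). Both organs were highest in F12, so that the groups overlapped although each mouse was higher in its marrow. Lime1, a transmembrane adaptor that recruits Src family kinases, showed the same layout, with 38.6, 23.9, 24.8 and 67.1 CPM in marrow and 11.6, 10.4, 6.82 and 24.3 in spleen (log2 1.57 ± 0.26, adjusted p = 0.00202). Slamf6, a receptor of the SLAM family, was at 35.4, 41.7, 47.3 and 39.7 CPM in marrow and 16.8, 12.2, 13.6 and 29.3 in spleen with no overlap (log2 1.22 ± 0.24, adjusted p = 0.00925). Usp2, a deubiquitinating enzyme, was at 10.1, 19.1, 16.4 and 8.09 CPM in marrow and 2.83, 7.49, 5.09 and 2.34 in spleen, also without overlap (log2 1.64 ± 0.28, adjusted p = 0.00353). Cd2, the adhesion receptor for CD48, averaged 28.6 ± 26.3 CPM in marrow and 9.60 ± 7.06 in spleen (log2 1.47 ± 0.27, adjusted p = 0.00680). The marrow of F12, at 67.9 CPM, stood far above the other marrow libraries, and without it the adjusted p was 0.135. Tigit, an inhibitory receptor for nectins, averaged 18.2 ± 9.99 and 7.21 ± 2.14 CPM (log2 1.20 ± 0.23, adjusted p = 0.00690). Gcsam, a regulator of signalling and motility in germinal centre B cells, was at 21.8, 23.6, 17.2 and 47.6 CPM in marrow and 1.35, 11, 3.55 and 13.0 in spleen, without overlap (log2 2.08 ± 0.38, adjusted p = 0.00593). Cd79a, the signalling chain of the B cell receptor, was higher by log2 0.49 ± 0.12 (adjusted p = 0.0455), at 2313 ± 527 CPM in marrow and 1639 ± 348 in spleen.

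Of the homing and trafficking receptors, 3 of 35 tested were called higher in marrow, against 0.281% of all genes tested, and none was called lower. The list median was -0.04 against 0.00 over all genes. Ccr10, the receptor for CCL27 and CCL28, was at 198, 81.5, 75.9 and 178 CPM in the marrow of M2, M3, F15 and F12 and at 53.8, 26.3, 41.4 and 81.4 CPM in the spleen (log2 1.43 ± 0.29, adjusted p = 0.0138). M2 and F12 were high in marrow, and the spleen of F12 was above the marrow of F15. Cxcr3, the receptor for the interferon-induced CXCL9 and CXCL10, was at 12.9, 19.2, 16.0 and 22.3 CPM in marrow and 8.22, 1.75, 2.18 and 9.94 in spleen, without overlap (log2 1.79 ± 0.43, adjusted p = 0.0487). Itgam, the CD11b integrin chain of myeloid cells, was at 4.17, 1.65, 0.873 and 1.25 CPM in marrow and 0.404, 0.125, 0.273 and 0.188 in spleen (log2 2.84 ± 0.65, adjusted p = 0.0367), on 66 and 9 reads. It was the other gene whose organ difference differed between the sorts. In YFP- cells the mean was 6.64 ± 4.65 CPM in marrow and 21.2 ± 17.9 in spleen, and the difference between the contrasts was 4.38 ± 0.78 on the log2 scale (adjusted p = 0.0310 by the interaction term in edgeR). Cxcr4, the receptor that retains plasma cells in marrow through CXCL12, did not pass the test, at 16.7, 17.3, 21.4 and 6.27 CPM in marrow against 30.6, 22.6, 34.6 and 17.5 in spleen, below the spleen of the same mouse in 4 of 4 (log2 -0.88 ± 0.26, adjusted p = 0.189). Itga4, a chain of the VLA-4 integrin, was at 64.1 ± 13.8 and 48.1 ± 16.6 CPM (log2 0.45 ± 0.20, adjusted p = 0.541).

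Slpi, a secreted inhibitor of leukocyte proteases, was at 19428, 52919.7, 19598 and 18317 CPM in the marrow of M2, M3, F15 and F12 and at 5701, 19239.7, 6743 and 9242 CPM in the spleen (log2 1.4 ± 0.32, adjusted p = 0.0371). M3 was highest in both organs, and its spleen lay within the range of the other mice's marrow. Slpi passed the test in the YFP- cells of the same mice too (log2 1.53 ± 0.33, adjusted p = 0.0383). Without mouse M2 its adjusted p was 0.289. Slpi was the only one of 23 identity genes tested to be called, and the list median was -0.04. Prdm1, Xbp1 and Irf4, the factors that set up and maintain the plasma cell state, differed by log2 -0.36 ± 0.13, -0.15 ± 0.15 and -0.17 ± 0.15. Of 24 survival receptors and signals tested, only Cd38 was called. Tnfrsf17 (BCMA), the receptor for the survival factor APRIL, was at 413 ± 58.3 CPM in marrow and 379 ± 40.4 in spleen (log2 0.11 ± 0.16, adjusted p = 0.974), and Cd28 at 189 ± 44.4 and 209.8 ± 58.0 (log2 -0.14 ± 0.12, adjusted p = 0.905).

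**Figure D3:**
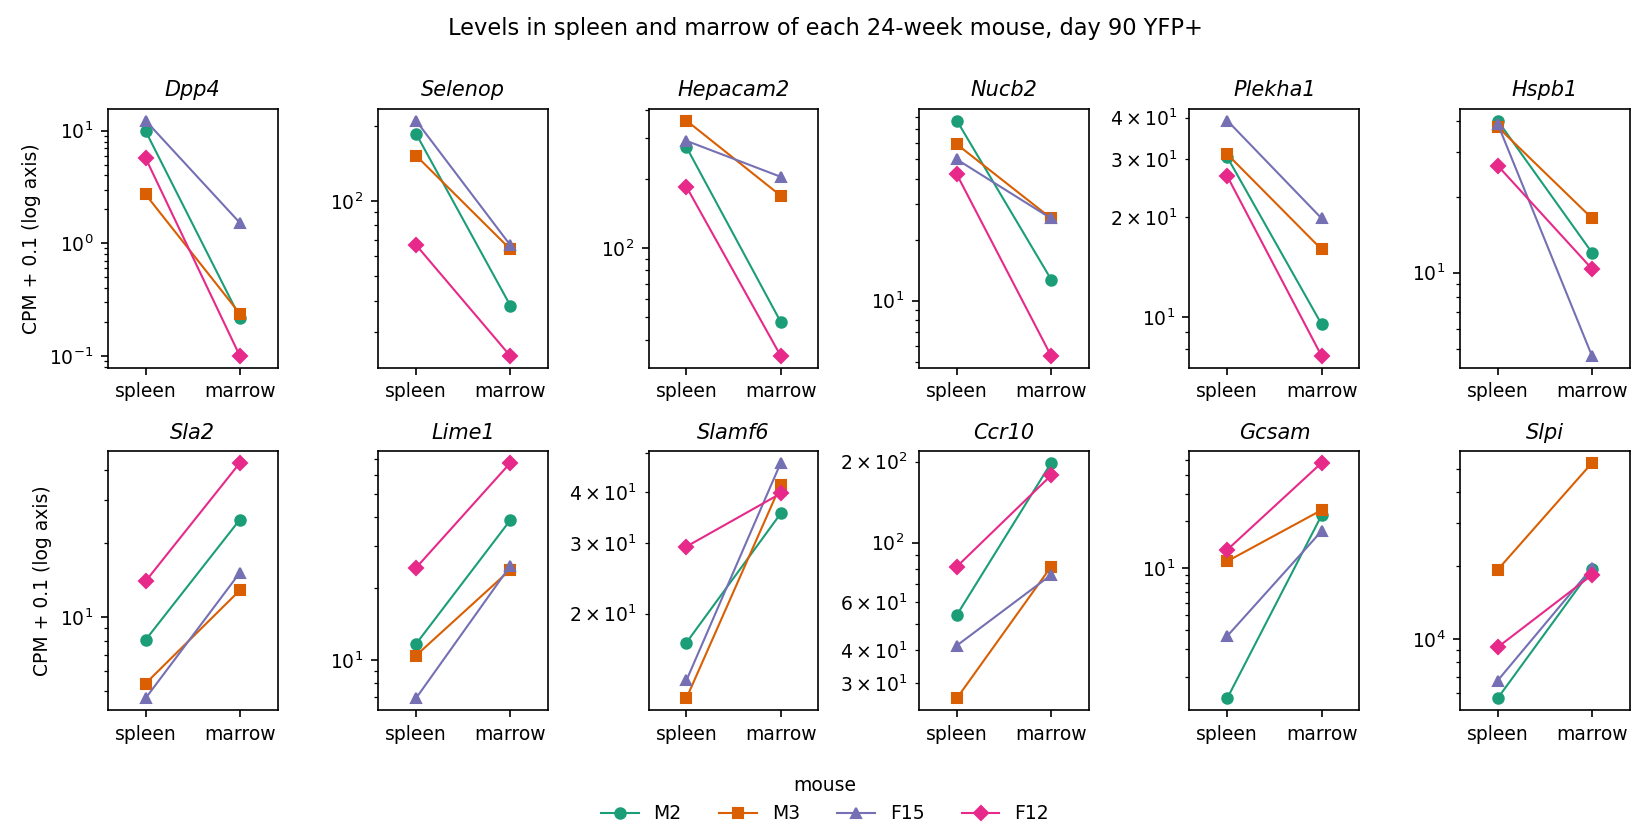
CPM plus 0.1 (log axis, a scale of its own in each panel) of 12 called genes in spleen and marrow; each line joins the 2 libraries of a mouse. In the upper row every line falls towards marrow, and in the lower row every line rises.

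A group of the called genes was at very low levels or absent in one organ. Cyp2b10, a cytochrome P450, was at 0 in all 4 spleen libraries and at 36.4, 35.9, 193 and 0.114 CPM in the marrow of M2, M3, F15 and F12, on 2334 reads, which is at least 858-fold higher against a floor of 3 counts over the spleen group (adjusted p = 0.00465). F12 was close to 0 in marrow as well, and the level in F15 was far above the rest. Without mouse M3 the adjusted p was 0.0626. The gene has close copies among the Cyp2b genes, between which reads can be split. Cep55, which completes cell division, was at 0 in spleen and at 8.22, 0.823, 3.38 and 0 CPM in marrow, at least 39.0-fold higher over the group. Ly6g, the defining marker of neutrophils, and Prss57, a serine protease of their granules, were called higher in marrow (log2 3.9 and 2.06, adjusted p = 0.0489 and 0.00690). They were 2 of 19 neutrophil and granulocyte precursor markers tested, against 0.281% of all genes tested. In all 18 of the 19 were positive and the median was 3.11. S100a9 of that list ranged from 103.5 to 552.2 CPM in marrow and from 2.06 to 25.4 CPM in spleen. Prss57 averaged 8.05 CPM in marrow and 1.77 in spleen here, and 5.93 and 0.758 in young YFP+ cells. It was at 31.4 and 37.0 in the YFP- cells of these mice and 24.7 and 24.9 in day 5 YFP+ cells. In day 5 YFP+ spleen the whole list, with Prss57 itself counted in it, summed to only 16.9 to 42.3 CPM. The part of neutrophils in the level of Prss57 was not tested. Cd4 was at 11.2, 2.19, 3.71 and 6.04 CPM in marrow and 0.943, 0, 0.819 and 0.750 in spleen (log2 3.09 ± 0.63, adjusted p = 0.0138), whereas Cd3e, which T cells require, was at 0 in all 4 marrow libraries and up to 1.75 CPM in spleen. Cd4 was the only one of 14 T cell markers tested to be called. Of the 14, 12 were negative, and their summed level was 8.08 to 16.1 CPM in marrow and 6.06 to 28.9 in spleen.

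Immediate early genes, which respond within minutes to receptor signals and to handling of cells, leaned towards spleen. Of 28 members tested 3 were called lower in marrow, against 0.249% of all genes tested, and none was called higher. A negative difference was found in 23, where 50.0% of all genes tested were negative. Of the 23, 13 were lower in all 4 mice, for which no share over all genes is given. The median was -0.50 against 0.00 over all genes. By mouse it was -0.07, -0.68, -0.87 and -0.67 in M2, M3, F15 and F12. Egr1, a zinc finger factor of this class, was at 24.3, 5.35, 19.3 and 15.5 CPM in the marrow of M2, M3, F15 and F12 and at 46.5, 21.3, 132 and 63.7 CPM in the spleen (log2 -1.79 ± 0.39, adjusted p = 0.0253). The spleens of F15 and F12 were highest. Egr2, its close relative, had 1 read in the marrow libraries together and 146 in the spleen libraries, where its level was 1.21, 0.624, 7.73 and 4.41 CPM (log2 -6.65 ± 1.45, adjusted p = 0.0265). The ratio of spleen to marrow was 132 with a 95% exact counting interval of 23.4 to 5262. Rgs1, which limits signalling from chemokine receptors, was at 0, 0.411, 0.218 and 0 CPM in marrow and 1.62, 5.12, 14.6 and 6.84 in spleen without overlap (log2 -5.41 ± 1.07, adjusted p = 0.0104). Other well-known members were not called: Fos was at 971 ± 322 CPM in marrow and 1494 ± 723 in spleen (log2 -0.49 ± 0.31, adjusted p = 0.783), Jun differed by log2 -0.53 ± 0.46 and Zfp36 by -0.77 ± 0.27. The time each organ spent in preparation is not given in the sources used here. Hspb1, a small heat shock protein, was at 11.9, 16.3, 4.58 and 10.3 CPM in marrow and 39.9, 37.7, 38.8 and 26.4 in spleen, without overlap (log2 -1.80 ± 0.31, adjusted p = 0.00353), the only one of 18 heat shock genes called.

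The promoters of these genes were searched for the serum response element that many immediate early genes share, the CArG box. A window of 250 bases before to 50 bases after the start was found in RefSeq (GRCm38.p6) for 23 of the 28 tested members. On either strand the CArG box was in a window of 3 of them (Dusp5, Egr2 and Zfp36), against 1.81% of all 27025 genes in the table. The list holds it in 6 of its 29 windows (20.7%, against 1.63% of all 32851 windows). Of those 6, 4 are windows of Egr2. One of these is shown because Egr2 is the called gene with the box, chr10:67537316-67537615 on the plus strand, with the box in capitals.
Egr2: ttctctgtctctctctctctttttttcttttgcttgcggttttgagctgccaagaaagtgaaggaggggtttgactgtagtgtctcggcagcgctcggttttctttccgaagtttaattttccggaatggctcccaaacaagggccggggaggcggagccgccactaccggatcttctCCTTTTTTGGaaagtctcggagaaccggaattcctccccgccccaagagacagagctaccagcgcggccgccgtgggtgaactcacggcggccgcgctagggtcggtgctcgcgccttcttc

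Interferon-response genes leaned the same way without any single member being called. Of 45 tested, 36 had a negative difference, where 50.0% of all genes tested were negative. Of the 36, 13 were lower in all 4 mice, for which no share over all genes is given. The median was -0.33. H2-K1, a classical class I molecule that presents peptide to T cells, was at 1113, 1153, 1733 and 1099 CPM in the marrow of M2, M3, F15 and F12 and at 1909, 1779.9, 2345 and 1404 in the spleen (log2 -0.56 ± 0.14, adjusted p = 0.0602). H2-D1 was at 2205 ± 560.4 and 3088 ± 555 CPM (log2 -0.52 ± 0.17, adjusted p = 0.270). Outside the list, H2-Q7, which encodes the class I molecule Qa-2, was lower in marrow, at 64.7, 121, 213 and 67.3 CPM against 189, 202, 414 and 153 (log2 -1.11 ± 0.23, adjusted p = 0.0142). Class I genes are near copies of one another, and reads can be split among them. Ifnar2, a chain of the type I interferon receptor, was lower in marrow, with log2 -0.65 ± 0.15 (adjusted p = 0.0399), and Lgals9, which encodes galectin-9, with -0.70 ± 0.16 (adjusted p = 0.0380). Of the 9 members with a positive difference, Bst2 (tetherin) was at 260.5 ± 94.9 CPM in marrow and 159 ± 31.4 in spleen, in the same direction in all 4 mice (log2 0.68 ± 0.17, adjusted p = 0.0605). In the YFP- cells of the same mice H2-K1, H2-D1 and Trim30a passed the test, by log2 -0.82, -0.77 and -1.0 (adjusted p = 0.00455, 0.0467 and 0.0181). In young YFP+ cells H2-K1 was the only member of the list to pass it (log2 -0.78 ± 0.16, adjusted p = 0.0434).

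The core of the interferon-stimulated response element, GAAANNGAAA on either strand, was in a window of 17 of the 36 members found in the same promoter table, against 3.99% of all genes there, and in 18 of their 46 windows (39.1%, against 3.44% of all windows). Trim30a, a regulator of innate signalling, is shown as the member that holds it and passed the test in YFP- cells, chr7:104446076-104446375 on the minus strand, with the match in capitals; it is the reverse complement of the motif as spelled. In the YFP+ cells Trim30a was at 17.3, 20.6, 30.3 and 18.2 CPM in marrow and 29.9, 31.6, 36.1 and 28.0 in spleen (log2 -0.56 ± 0.20, adjusted p = 0.319).
Trim30a: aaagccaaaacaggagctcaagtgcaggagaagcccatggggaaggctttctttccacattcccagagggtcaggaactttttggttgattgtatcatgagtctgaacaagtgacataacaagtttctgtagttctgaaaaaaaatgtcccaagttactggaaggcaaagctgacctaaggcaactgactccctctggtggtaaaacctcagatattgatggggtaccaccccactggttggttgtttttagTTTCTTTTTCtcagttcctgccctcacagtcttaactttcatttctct

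Proliferation genes had a list median of 1.00, the highest among the lists of cell functions, with 27 of 33 positive and none called. Cdk1, the kinase that starts mitosis, was at 8.57, 1.51, 11.6 and 0.570 CPM in the marrow of M2, M3, F15 and F12 and 0.270, 0.624, 2.46 and 0.563 in the spleen (log2 2.08 ± 0.72, adjusted p = 0.306), and Birc5 (survivin) at 16.2, 0.549, 16.3 and 0 and 0.404, 0, 5.46 and 0.188 (log2 2.06 ± 1.07, adjusted p = 0.664). The marrow of M2 and F15 was high in both, and these are also the marrow libraries with high erythroid markers. Left out in turn, the marrow of F15 took the list median to 0.18. Without the 3 libraries with high erythroid markers the list median was -0.70, with the opposite sign. In that fit only F12 keeps both of its YFP+ libraries. By mouse the list median was 1.54, 0.17, 1.16 and -0.49 in M2, M3, F15 and F12. Ncapg2, a condensin subunit outside the list, was called higher in marrow (log2 1.04 ± 0.25, adjusted p = 0.0460), at 32.8, 50.7, 39.1 and 31.5 CPM against 11.2, 20.6, 19.0 and 23.2, without overlap.

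Few genes of metabolic and secretory programmes were called. Of 33 genes of glycolysis and the hypoxia response, 1 was called: Aldoc, the aldolase C of glycolysis, at 8.22, 16.7, 15.2 and 9.92 CPM in marrow and 2.83, 4.62, 2.73 and 3.66 in spleen (log2 1.85 ± 0.34, adjusted p = 0.00579). The 37 genes of endoplasmic reticulum secretion and the unfolded protein response had a median of -0.10 with 30 negative and none called. Ribosomal protein genes had a median of 0.15 (31 of 35 positive), the mitochondrially encoded genes 0.16 (12 of 13 positive) and the cholesterol synthesis genes 0.13 (19 of 23 positive), each with none called. The ribosomal median was 0.26, -0.08, -0.17 and 0.67 in M2, M3, F15 and F12. It ran from -0.02 to 0.28 with a library or mouse left out. The mitochondrial median ran from 0.09 to 0.36 and the cholesterol median from 0.04 to 0.43 in those fits, the latter being negative in F12 (-0.40). Rbm3, a cold-inducible RNA-binding protein, was higher in marrow by log2 0.74 ± 0.15 (adjusted p = 0.0133), with 235, 254, 211 and 210.4 CPM against 159, 180.1, 133 and 89.5 and no overlap.

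**Figure D4:**
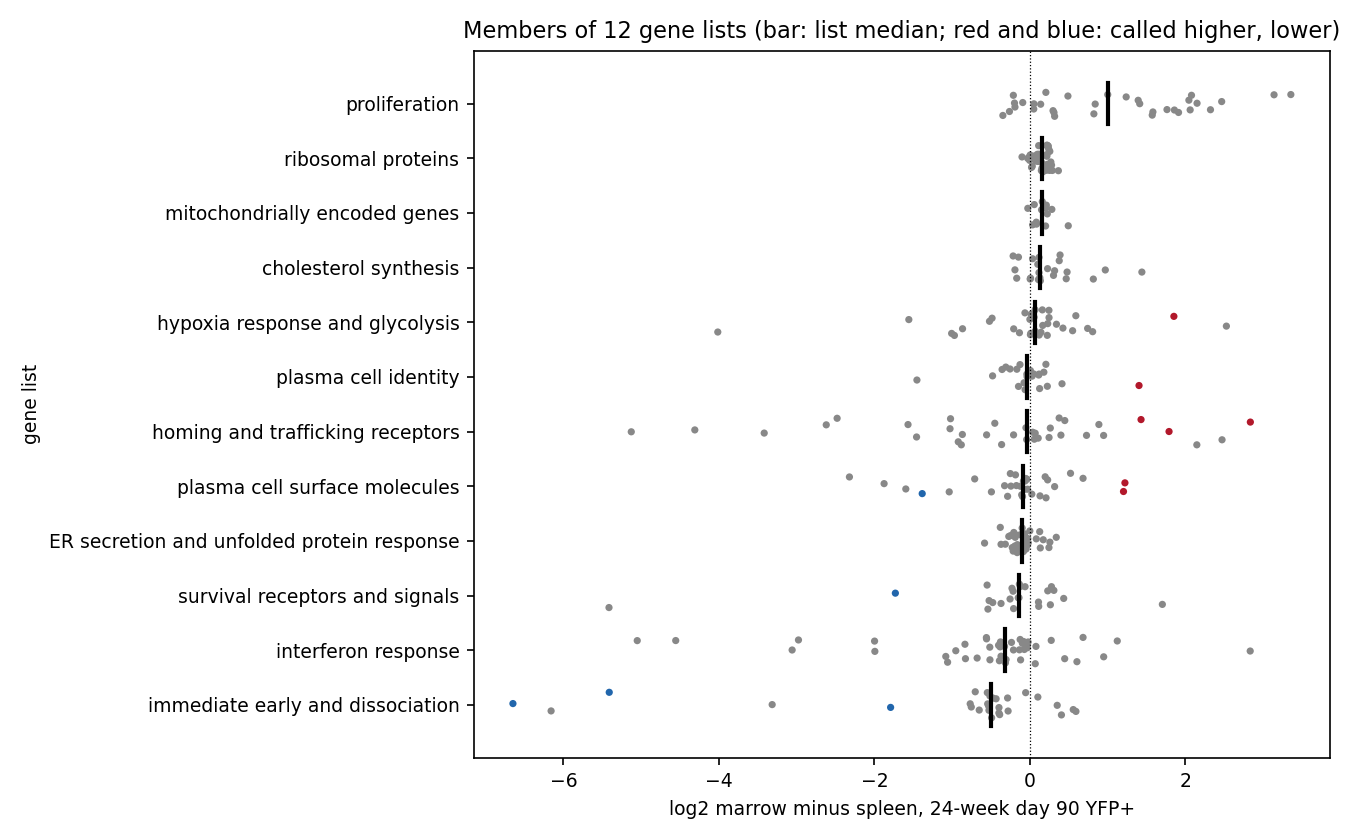
Log2 difference between marrow and spleen (x axis) for the tested members of 12 gene lists (y axis) in 24-week day 90 YFP+ cells; grey points were not called, red were called higher and blue lower, and the black bar is the list median. The medians run from -0.50 for immediate early genes to 1.00 for proliferation genes, and few members of any list are called.

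The organ difference was also fitted within each pair of mice that share a prefix and date. Over all genes the sign was the same in M2 and M3 as in F15 and F12 for 52.7%. The 66 called genes had the same sign in both pairs, which their choice on these same libraries largely fixes. Within the M mice 3 genes were called higher and 8 lower, and within the F mice none (624 genes at an unadjusted p under 0.05, edgeR). No gene passed the test of the difference between the pairs (0 of 12457, or 0%, with 517 at an unadjusted p under 0.05 and a smallest adjusted p of 0.143). For Dpp4 the difference was -5.38 ± 0.98 in the M mice and -3.83 ± 0.76 in the F mice, and for Slc43a1 it was -3.30 ± 0.57 and -1.25 ± 0.51.

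The young mice allow the organ difference to be read in other animals. There 11 genes were called (0.0883%), 7 higher and 4 lower in marrow. Of the 66 genes called in 24-week mice, 61 had the same sign in young mice (92.4%, against 59.3% of all genes), and 4 were called there in the same direction: Gimap7, Morn1, Prss57 and Slc66a2, which are 6.06% of the 66 and 36.4% of the 11. Gimap7, a GTPase of lymphocytes, was at 127, 89.4, 78.4 and 169.7 CPM in the marrow of M2, M3, F15 and F12 and at 67.4, 45.9, 47.6 and 97.2 in the spleen (log2 0.84 ± 0.15, adjusted p = 0.00548); in young mice the difference was log2 1.11 ± 0.17 (adjusted p = 0.00366). Morn1 differed by 1.03 ± 0.23 here and 1.34 ± 0.27 in young mice (adjusted p = 0.0342 and 0.0420). Lime1, Slamf6, Cxcr3 and Ccr10 had young differences of 1.44, 1.31, 1.71 and 1.32, beside 1.57, 1.22, 1.79 and 1.43 in 24-week mice, none of them past the test in young mice (adjusted p = 0.0501, 0.0573, 0.327 and 0.15). The 5 genes of opposite sign were Cep55, Emb, Hcst, Itgam and Mthfd1l. No gene passed the test of the difference between the ages (0 of 12457, or 0%, with 358 at an unadjusted p under 0.05 and a smallest adjusted p of 0.469, against 54 calls by DESeq2 and 0 by limma-voom), nor when only F-prefixed mice were used (0 genes).

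In the YFP- cells of the same 4 mice 28 genes were called (0.225%), 13 higher and 15 lower. Those are other libraries of the same animals. Of the 66 genes, 57 had the same sign there (86.4%, against 52.9% of all genes), and Gcsam, H2-Q7 and Slpi were called in both, 4.55% of the 66 and 10.7% of the 28. For Gcsam the YFP- difference was log2 2.24 ± 0.39 (adjusted p = 0.00492), beside 2.08 ± 0.38 in YFP+ cells. The median over the 35 higher genes was 1.47 in YFP+ and 0.28 in YFP- cells, and over the 31 lower genes -1.66 and -0.39, but the 66 were chosen by their YFP+ values. Hepacam2 was -1.66 in YFP+ and -0.16 in YFP- cells (adjusted p of the difference 0.285), and Aldoc 1.85 and -0.27 (adjusted p of the difference 0.258). In the fit with the block only Dpp4 and Itgam passed that test, and limma-voom called 1 gene.

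At day 5 no gene was called between marrow and spleen YFP+ cells (0 of 12457, or 0%, with 283 at an unadjusted p under 0.05, against 71 calls by DESeq2 and 0 by limma-voom). The 66 genes had the same sign there in 60 cases (90.9%, against 53.9% of all genes), with medians of 0.27 over the higher and -0.46 over the lower genes. Slamf6 was -0.09 ± 0.26 at day 5 beside 1.22 ± 0.24 at day 90, and Nucb2 -0.99 ± 0.32 beside -1.89 ± 0.28. The change of the organ difference from day 5 to day 90 passed the test for no gene (0 of 12457, or 0%, with 395 at an unadjusted p under 0.05 and a smallest adjusted p of 0.370, against 74 calls by DESeq2 and 0 by limma-voom).

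**Figure D5:**
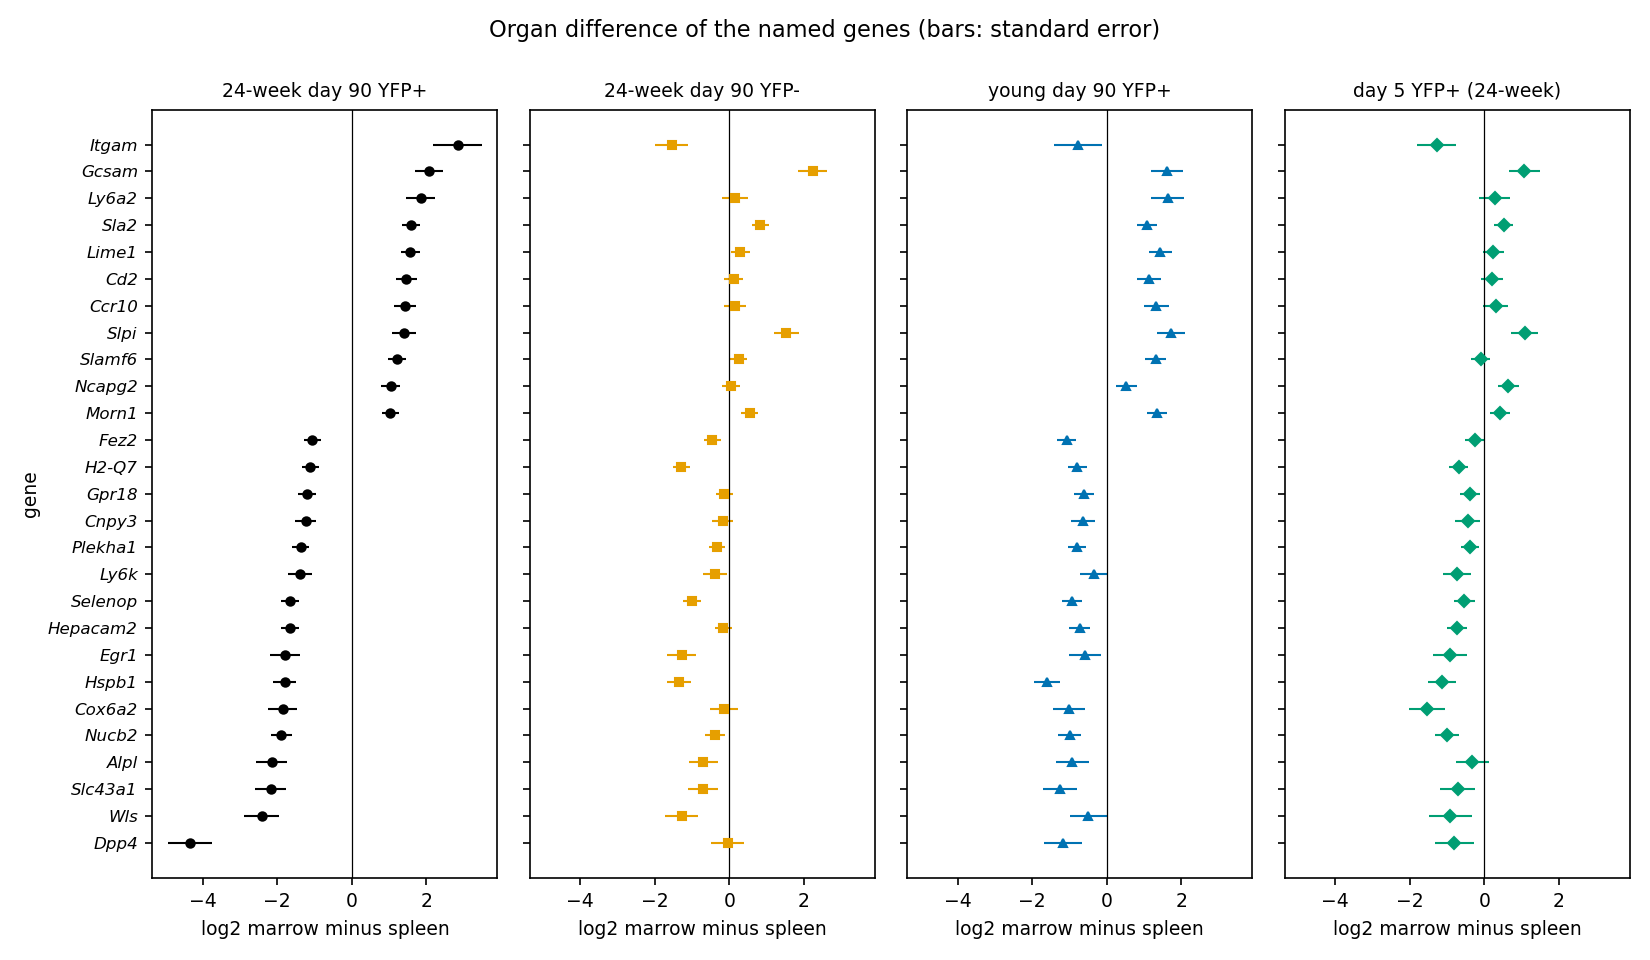
Log2 difference between marrow and spleen with its standard error, derived from the F statistic (x axis), for 27 called genes (y axis) in 4 populations of cells. Dpp4 is at -4.34 in 24-week YFP+ cells and -0.04 in the YFP- cells of the same mice, Itgam changes sign between these sorts, and most other genes keep their sign.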

How the data were processed

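Full-length cDNA of sorted plasma cells was made with SMART-Seq v4 and sequenced after Nextera XT library preparation, per the labels' protocols. The authors deposited 1 table of expected counts per gene. RSEM 1.3.1, STAR 2.6.1b and DESeq2 1.26.0 are listed per the submitters' processing notes, as are GRCm38 and GRCm39, with no word on which the table uses, so no coordinates are given beside the counts. Those of the 2 promoter windows are RefSeq's own, on GRCm38.p6. The annotation and the strand setting are not given in the sources used here. Immunoglobulin genes are left out of the deposited table. Of 54960 gene entries, 1362 carry no name (at most 0.00668% of a library's counts). They were kept under their identifier, subject to the same filter, and were left out only of the naming of genes. Of the deposited values 3.10% were not whole, and all were rounded.

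The fit used edgeR 4.0.16 in R 4.3.3 (quasi-likelihood test, TMM scaling, filterByExpr with a minimum count of 10) on the 43 libraries with a group, with group and mouse as terms, and Benjamini-Hochberg adjustment over all 12457 genes tested. An adjusted p under 0.05 is a call. CPM were computed on the TMM-scaled library sizes, and means are given with the SD. One library, whose title and cell type label disagree, entered no comparison. Totals ran from 6643300 to 12663100 counts over the 43 libraries, so genes under about 1 CPM rest on few reads. Intervals and the floor of 3 counts cover counting error only. Each group has 1 library per mouse. With group and mouse as terms, the p-values set a difference against the spread that these terms leave, estimated over the 43 libraries. That spread includes sorting and library preparation.

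The pairing comes from the mouse named in the titles. Over all genes the deviations from the group means correlated at r = 0.0888 (M2), 0.207 (M3), 0.207 (F15) and 0.0956 (F12) between the organs of a mouse, against -0.139 to 0.0224 between different mice, and 4 of 4 marrow libraries correlated best with their own mouse.

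Genes were named by rule: called, at least 2-fold, averaging 20 CPM or more in the organ with the higher level, up to 15 per direction by p, which gave 11 higher and 15 of 16 lower, plus members of the gene lists. The members and lists were chosen with earlier results of these data known. Alternatives were no block, other scaling, filters and tests (DESeq2 1.42.0, limma 3.58.1), fewer libraries, and leaving out in turn each of the 8 libraries and each of their 4 mice. Promoter sequences are from RefSeq (GRCm38.p6).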

Additional observations from a re-analysis of the deposited data

Results flagged for a closer look

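In 3 of 52 groups of 4 libraries, 1 library stood far from the other 3; chance flags about 1 in 20 such groups. Cd2 was at 67.9 CPM in the marrow of F12, against 13.7 to 18.8 CPM in the other marrow libraries. Hspb1 was at 26.4 CPM in the spleen of F12, against 37.7 to 39.9 CPM in the other spleens. Slpi was at 52920 CPM in the marrow of M3, against 18320 to 19600 CPM in the other marrow libraries.

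In 2 genes the organ difference of YFP+ cells differed from that of YFP- cells of the same mice by the interaction term in edgeR. The log2 difference between the contrasts was -4.30 for Dpp4 and 4.38 for Itgam, with an adjusted p of 0.0310 each. Neither was called by the fit without the block, on the 16 libraries of these mice alone, or without the 3 libraries high in erythroid markers, and the cause was not tested.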

How the results depend on the processing

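No called gene reversed its direction under any alternative. Without the replicate block (no replicate block) 0 genes were higher and 2 lower, in place of 35 and 31. With no filter 130 were higher and 143 lower, and the DESeq2 Wald test gave 95 and 114. On the 16 libraries of these mice 8 were higher and 11 lower, and without the 3 libraries high in erythroid markers, chosen after seeing the data, 2 and 4. In the latter fit only F12 keeps both of its YFP+ libraries, so the loss of pairs and the erythroid markers cannot be told apart. Within M mice 3 were higher and 8 lower, within F mice 0 and 0. The 12 left-out fits dropped a YFP+ library of a 24-week day 90 mouse or one of those 4 mice, and no young or day 5 library. In them 5 to 25 were higher and 9 to 26 lower; the lowest totals were 17 without the spleen of M2 and 18 without mouse M3. Other scaling (34 and 31), a stricter filter (33 and 29), limma-voom (32 and 29) and the 8 libraries alone (29 and 27) moved the counts little, with 63, 60, 51 and 35 of the 66 still called.

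In YFP- cells the 28 calls became 2 without the block, 141 with no filter, 190 by DESeq2, 1 on 16 libraries, 17 without the 3 libraries and 0 to 29 with 1 left out. In young mice the 11 became 1 without the block, 157 with no filter, 125 by DESeq2 and 10 to 26 with a 24-week library or mouse left out. At day 5 the 0 calls became 54 with no filter and 71 by DESeq2, and were 0 with a 24-week day 90 library or mouse left out, which drops none of the day 5 libraries. The 2 calls for the difference between YFP+ and YFP- became 0 without the block, 98 with no filter, 70 by DESeq2, 1 by limma-voom, 0 on 16 libraries, 0 without the 3 libraries and 0 to 3 with 1 left out. The 0 calls for 24-week against young became 39 with no filter and 54 by DESeq2, and those for day 90 against day 5 became 54 and 74; both were 0 with a 24-week day 90 library or mouse left out. The cause was not tested. Genes at a few reads per library are limited by depth.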
